A study of Mus musculus with 21 samples.

Results

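Sostdc1 and 9 genes of bone morphogenetic protein (BMP) signalling were followed across cells sorted from the corpus of the mouse stomach. They are the ligands Bmp2, Bmp4 and Bmp7, the type I receptor Bmpr1a, the target genes Id1, Id2 and Id3, and the inhibitory SMADs Smad6 and Smad7. They make up 10 of the 22180 genes tested, and each was read by a single probe set of the microarray that the platform annotation gives to that gene alone. The list was built around Sostdc1, which was selected on its lower signal after tamoxifen in these same arrays. Its tamoxifen values are therefore given as a description, with no test.

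BMP ligands bind complexes of type I receptors, such as Bmpr1a, and type II receptors, such as Bmpr2. The receptors phosphorylate SMAD proteins that enter the nucleus with Smad4 and switch on genes such as the Id family, Smad6 and Smad7, and the last of these feed back to dampen the pathway. Sostdc1 is a secreted antagonist that binds BMPs and also the LRP co-receptors of Wnt signalling, and in the stomach corpus BMP signalling is known for its part in maintaining the differentiated epithelium, parietal cells included.

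The cells came from mice with an Lgr5GFP reporter and were sorted by green fluorescence into high, low and negative populations. Treated mice had received tamoxifen at 0.27 mg per g body weight 24 hours before isolation, and the labels call these samples injured. Control mice were not injected. Each of the 3 tamoxifen groups had 4 arrays and each of the 3 control groups had 3 arrays, 21 in all. The design text describes the arrays of a group as technical replicates from separate sorting runs, so p-values measure the spread between these runs. Strain and age of the mice are not given in the sources used here, and no group received vehicle alone, so drug, injection and sorting run cannot be told apart. The control negative arrays carry a source name that reads low, while their titles and population labels read negative.

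Values are log2 signal, and a difference of 1 is a 2-fold change. Across the 21 arrays single values ran from 0.96 to 13.55, array medians from 3.95 to 4.25, and arrays of a group correlated at 0.926 to 0.985 over all probe sets. The number of arrays limits the precision. Olfactory receptor genes, which these cells are not known to use, served as a background: 95 percent of their values lay under 4.25. Lgr5, the gene that drives the reporter, averaged 8.79 in control high, 7.56 in control low and 4.41 in control negative cells, and 8.43, 6.70 and 4.59 in the matching tamoxifen groups, which follows the order of the sort. Markers of fibroblasts and endothelium lay mostly near background: 4 to 7 of 12 fibroblast and smooth muscle markers and 1 to 4 of 10 endothelial markers had group means above it. In these sorted bulk samples, fewer cells of a type and less RNA per cell cannot be told apart.

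Sostdc1 was high in control Lgr5GFP cells and lower in every tamoxifen group. Its values were 8.00, 9.12 and 8.52 in control high cells and 8.96, 9.50 and 8.84 in control low cells. In control negative cells they were 5.91, 5.84 and 5.21. The fluorescent control cells thus all lay above the negative ones.

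After tamoxifen Sostdc1 read 4.61, 7.00, 6.33 and 6.34 in the high population. It read 5.28, 5.70, 5.73 and 4.98 in the low population and 4.48, 4.47, 3.56 and 4.72 in the negative population, where the mean of 4.31 was next to background. In none of the 3 populations did tamoxifen and control arrays overlap. The difference was -2.48 ± 0.41 (SE) in high cells, -3.68 ± 0.41 in low cells and -1.35 ± 0.41 in negative cells, or 5.57-fold, 12.8-fold and 2.54-fold lower. Tamoxifen high replicate 1 stood below the other arrays of its group, and without it the difference in high cells was -1.99. That array also had the lowest mean in its group over 10 tuft cell markers (7.28, against 8.93 to 9.99). The same held for 10 chief cell markers (7.64, against 8.04 to 8.32). It had the highest mean over 6 mucous neck cell markers (11.1, against 9.20 to 10.3). Its means were also the highest for 12 endocrine cell markers (6.99, against 4.38 to 5.38) and 9 surface pit cell markers (8.49, against 7.03 to 8.09).

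**Figure D1:**
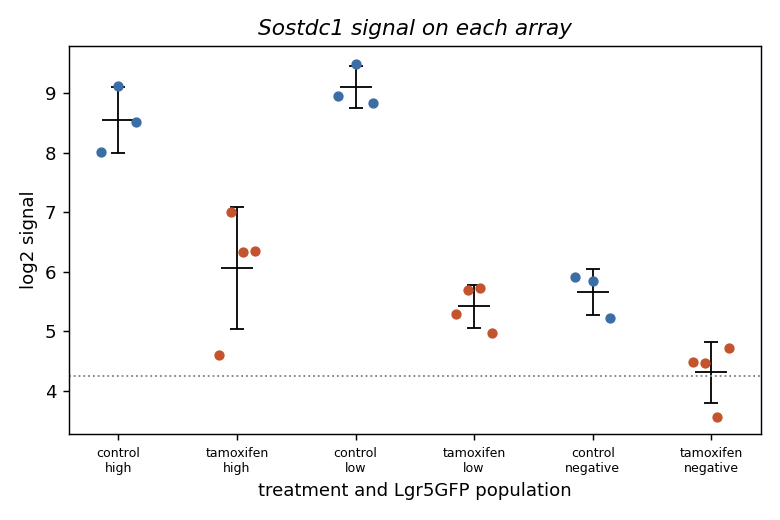
Sostdc1 log2 signal (vertical axis) on each array, by treatment and Lgr5GFP population (horizontal axis), with blue points for control, red points for tamoxifen, bars for mean ± SD and a dotted line at the background of 4.25. Control high and low arrays lie between 8.00 and 9.50, above all tamoxifen arrays, which lie between 3.56 and 7.00.

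The order of the 6 group means ran from control low (9.10) and control high (8.55) through tamoxifen high (6.07), control negative (5.66) and tamoxifen low (5.42) to tamoxifen negative (4.31). Neighbours in this order overlapped, except that control high lay wholly above tamoxifen high and tamoxifen low wholly above tamoxifen negative. The comparisons between populations use the same arrays as the contrast by which the gene was picked. Their p-values are therefore not independent of that choice, and are given as a description. In controls, Sostdc1 was 7.42-fold higher in high than in negative cells (log2 difference 2.89 ± 0.44, limma adjusted p = 0.000141) and 10.9-fold higher in low than in negative cells (3.44 ± 0.44, limma adjusted p = 6.03e-05). High and low control cells differed by -0.55 ± 0.44, which did not pass the test (limma adjusted p = 0.8). After tamoxifen, high cells exceeded negative cells by 1.76 ± 0.38 (limma adjusted p = 0.00418), although 1 high array fell among the negative ones and the adjusted p was 0.0617 when only these 2 groups were fitted. Low minus negative was 1.11 ± 0.38 (limma adjusted p = 0.164) and high minus low 0.65 ± 0.38 (limma adjusted p = 0.444), and the latter became 1.14 with an adjusted p of 0.0309 without tamoxifen high replicate 1.

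Markers of chief cells, which secrete digestive enzymes at the gland base, moved with Sostdc1 in part. Of 10 measured, 5 were higher in control high and in control low than in control negative cells (Bhlha15, Cblif, Chia1, Copz2 and Pnliprp2 in both), and Pga5 was lower in high cells. Of all genes, 12.3% were called between control high and negative cells and 5.27% between control low and negative cells. After tamoxifen Bhlha15 fell in high cells, Bhlha15 and Copz2 fell and Ctss rose in low cells, and in negative cells 0 were called in limma (4 at an unadjusted p under 0.05), with list medians of -0.22, -0.22 and -0.08. The mean over 10 of them ranged from 8.04 to 8.76 in control high, 8.61 to 8.99 in control low and 7.82 to 7.99 in control negative arrays, and from 7.64 to 8.32, 7.99 to 8.36 and 7.62 to 7.97 in the matching tamoxifen arrays, with 8 of the 10 above background in every group. Over the 21 arrays, which share treatments and sorting gates, that mean correlated with Sostdc1 at r = 0.86, and at 0.60 once group means were removed. Bhlha15, a transcription factor of secretory cells, averaged 8.14 in control low and 5.12 in tamoxifen low cells. The defining marker Pgc had group means of 13.17 to 13.36, near the highest value of all probe sets (13.55), where a change may not show. The part of these markers in the Sostdc1 values was not tested.

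The 5 genes whose pattern over the 21 arrays was most like that of Sostdc1, among 11749 other genes with a mean above background once predicted genes with Gm or Rik names were left out, were Tmem64 (r = 0.96), Gper1 (0.96), Tent5c (0.94), Bhlha15 (0.94) and Ell2 (0.94). After group means were removed, the leading 5 were Slc2a10 (0.88), Supt3 (0.88), Sdc3 (0.84), Aldh7a1 (0.81) and Retreg1 (0.80). Over the 21 arrays, in the same order, their r was 0.63, -0.23, 0.28, 0.80 and 0.60. The correlations with group means removed include tamoxifen high replicate 1 (Sostdc1 at 4.61, group mean 6.07) and were not computed without it. The lists share no gene. Among the members, Bmp4 (0.79) and Bmp7 (0.58) had the highest positive correlations with Sostdc1 over the arrays, and Id1 (-0.70) and Id2 (-0.63) the most negative, but with group means removed these fell to 0.15, -0.17, -0.25 and -0.31.

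Among the ligands, Bmp2 was highest in control Lgr5GFP high cells and lower there after tamoxifen. Its values were 7.49, 7.11 and 6.78 in control high cells against 5.57, 5.74, 6.39 and 6.32 in tamoxifen high cells, with no overlap. The difference was -1.12 ± 0.24 (2.17-fold lower, limma adjusted p = 0.0169). It was the only one of the 9 members other than Sostdc1 called in this comparison, in which 2.73% of all genes were called. The call was lost when only the high groups were fitted (adjusted p = 0.201) and when 1 of 4 arrays was left out: control high replicate 1 (-0.93, adjusted p = 0.11), control high replicate 2 (adjusted p = 0.0599), tamoxifen high replicate 1 (adjusted p = 0.0534) or tamoxifen high replicate 2 (adjusted p = 0.0524).

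In low cells Bmp2 read 5.89, 5.46 and 5.42 in controls and 5.35, 4.94, 5.50 and 4.94 after tamoxifen, and in negative cells 6.40, 5.89 and 6.15 against 5.89, 5.38, 5.72 and 6.28. Both pairs overlapped, and the differences of -0.41 ± 0.24 and -0.33 ± 0.24 did not pass the test. In controls Bmp2 was 2.89-fold higher in high than in low cells (1.53 ± 0.26, limma adjusted p = 0.00404), a call kept with each array left out in turn. It was the only member called between these groups, where 1.34% of all genes were called. Control high cells also exceeded negative cells by 0.98 ± 0.26 (limma adjusted p = 0.0149), but not without control high replicate 1 (adjusted p = 0.0991) or control negative replicate 2 (adjusted p = 0.0805).

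Tuft cell markers, and some immune cell markers, moved with Bmp2 in part. In controls tuft markers were higher in low than in negative cells, while Bmp2 averaged 5.59 in low and 6.14 in negative cells. In low cells the tuft list had a median tamoxifen difference of -3.12, while Bmp2 averaged 5.59 in controls and 5.18 after tamoxifen. The mean over 10 tuft cell markers, all above background in each group, ranged from 9.89 to 10.7 in control high, 8.10 to 9.44 in control low and 6.42 to 7.51 in control negative arrays. After tamoxifen it was 7.28 to 9.99 in high, 5.36 to 6.71 in low and 5.59 to 6.52 in negative arrays. It correlated with Bmp2 at r = 0.73 over the 21 arrays and at 0.79 with group means removed. The mean over 11 immune cell markers, of which 2 to 7 were above background in a group, ranged from 4.69 to 4.96 in control high and 4.27 to 4.95 in tamoxifen high arrays and from 4.17 to 5.14 in the other groups, and correlated with Bmp2 at 0.64 and 0.62. Among these, Ptprc, the CD45 antigen of leukocytes, averaged 9.05 in control high, 6.66 in control low and 4.92 in control negative cells, and 6.73, 3.99 and 4.41 after tamoxifen. The immune list did not move as one. Kit and Ptprc were called higher in high than in negative cells under both treatments. Lyz2 was called lower there in controls, and Cd52, Cd68 and Lyz2 after tamoxifen. Group means ran from 2.93 to 3.60 for Cd3e and from 4.07 to 4.62 for Csf1r. The part of either list in the Bmp2 differences was not tested. After tamoxifen, high cells still exceeded low cells in Bmp2 by 0.83 ± 0.23 (limma adjusted p = 0.0486). The call was lost when only these groups were fitted (adjusted p = 0.133) and with a trended robust prior (adjusted p = 0.0565). It was also lost with the number in the sample titles as a block (adjusted p = 0.0739). The same held without tamoxifen high replicate 3 or 4 (adjusted p = 0.146 and 0.124) or tamoxifen low replicate 1, 2 or 4 (adjusted p = 0.0854, 0.138 and 0.122).

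Bmp4 is a ligand known chiefly from the mesenchyme of the gut, and its mean signal stayed under the background of 4.25 in all 6 groups. In low cells it read 4.15, 3.94 and 3.77 in controls and 3.20, 3.18, 3.48 and 3.50 after tamoxifen. The difference of -0.62 ± 0.15 passed the test (limma adjusted p = 0.0146), but both means lay among values that olfactory receptor genes also reach, so no fold is given. The call was lost without control low replicate 1 (-0.52, adjusted p = 0.0997).

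Bmp7, an epithelial ligand in many organs, read 6.58, 7.09 and 6.80 in control low cells and 5.69, 6.35, 6.22 and 6.10 in tamoxifen low cells. The arrays did not overlap, yet the difference of -0.74 ± 0.28 did not pass the test in the fit of all arrays (limma adjusted p = 0.125) and passed when only these groups were fitted (adjusted p = 0.0406). High cells differed by -0.05 ± 0.28 and negative cells by -0.22 ± 0.28. After tamoxifen Bmp7 was 0.87 ± 0.26 higher in high than in negative cells (limma adjusted p = 0.0374) with overlapping arrays. That call was lost without tamoxifen high replicate 1 (0.62, adjusted p = 0.116), tamoxifen high replicate 3 (adjusted p = 0.0857) or tamoxifen negative replicate 2, 3 or 4 (adjusted p = 0.108, 0.0967 and 0.0725), and when only these groups were fitted (adjusted p = 0.129). A block for the number in the sample titles also lost it (limma adjusted p = 0.0574).

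Mucous neck cell markers moved with Bmp7 in part. The mean over 6 neck markers, all above background in each group, ranged from 9.44 to 11.3 in control high, 10.01 to 11.0 in control low and 9.99 to 10.3 in control negative arrays, and from 9.20 to 11.1, 8.39 to 9.93 and 8.31 to 9.31 after tamoxifen. In controls its medians were 10.19, 10.17 and 10.10, while Bmp7 averaged 6.83, 6.82 and 6.12. In negative cells the neck list had a median tamoxifen difference of -1.71, while Bmp7 averaged 6.12 in controls and 5.91 after tamoxifen. Between arrays the 2 were closer. The neck marker mean correlated with Bmp7 at r = 0.81 over the 21 arrays and at 0.76 with group means removed, and its part in the Bmp7 values was not tested.

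**Figure D2:**
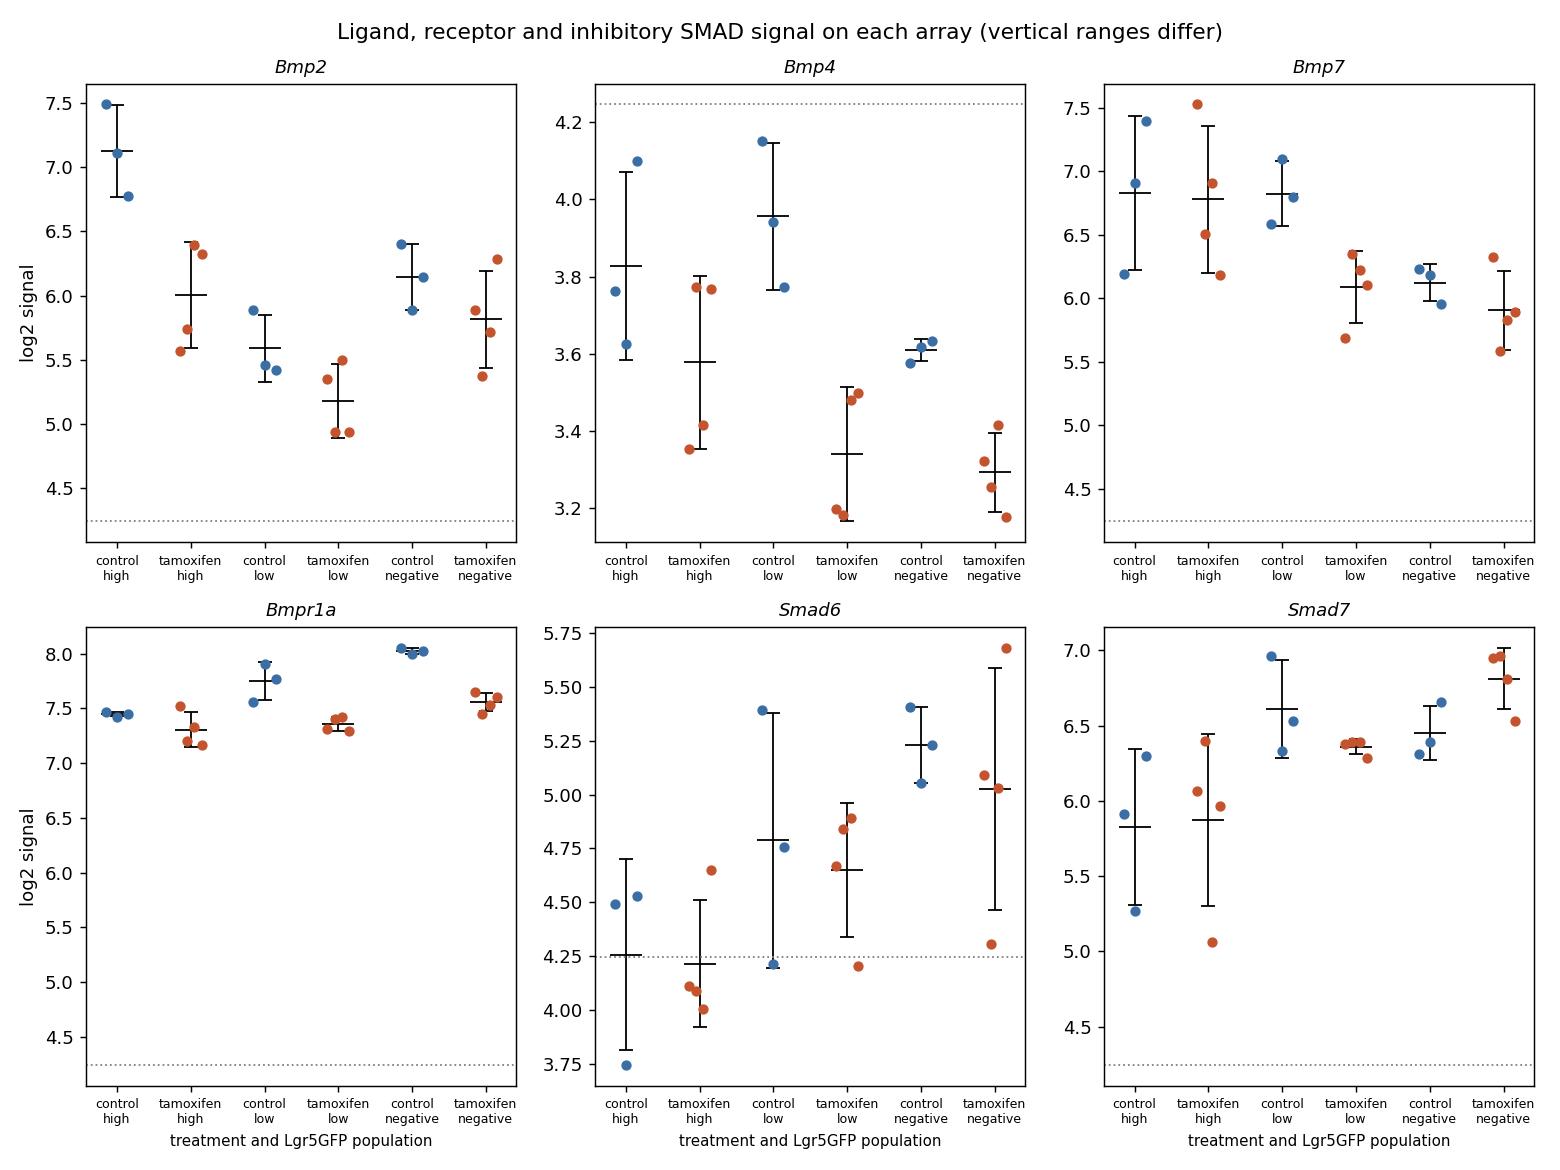
Log2 signal (vertical axes, with a different range in each panel) of Bmp2, Bmp4, Bmp7, Bmpr1a, Smad6 and Smad7 on each array by treatment and Lgr5GFP population, with mean ± SD, blue for control, red for tamoxifen and a dotted line at the background of 4.25. Control high arrays are the highest for Bmp2 (6.78 to 7.49), all Bmp4 arrays lie under the line, and control negative arrays are the highest for Bmpr1a (8.00 to 8.05).

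Bmpr1a, the type I receptor, varied little within groups (SD 0.02 to 0.17). It read 7.47, 7.42 and 7.45 in control high, 7.56, 7.91 and 7.77 in control low, and 8.05, 8.00 and 8.02 in control negative cells. Control high cells were 1.49-fold lower than control negative cells (-0.57 ± 0.13, limma adjusted p = 0.00528), a call kept with each array left out. After tamoxifen the values were 7.52, 7.20, 7.33 and 7.16 in high, 7.31, 7.40, 7.42 and 7.29 in low, and 7.65, 7.45, 7.53 and 7.60 in negative cells. Tamoxifen and control arrays did not overlap in the low and negative populations. The differences there, -0.39 ± 0.12 (limma adjusted p = 0.0578) and -0.46 ± 0.12 (limma adjusted p = 0.0513), missed the threshold, and passed it after cyclic loess normalization between arrays (-0.56 with adjusted p = 0.00809, and -0.53 with adjusted p = 0.0297). High cells differed by -0.14 ± 0.12 (limma adjusted p = 0.606).

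The Id genes encode helix-loop-helix proteins that bind and block other transcription factors, and they are the most widely used readout of BMP signalling. The group means of all 3 were lowest in Lgr5GFP high cells and highest in negative cells, in controls and after tamoxifen alike. Promoter sequence was searched for 5 of the 10 members, from RefSeq on GRCm38.p6: Bmp4, Bmpr1a, Id2, Id3 and Smad6. The promoters of Sostdc1, Id1, Bmp2, Bmp7 and Smad7 were not searched. The 250 bases before the start of Id2 and Id3, which moved together across the populations, are shown 5′ to 3′ on the gene's strand, with the stretch of Smad6 that spans its start. Capitals mark GGCGCC, a GC-rich element bound by BMP-activated SMADs, or GTCTAGAC, a SMAD-binding palindrome. Each reads the same on both strands, and the motifs do not overlap each other.
Id2, chr12:25096093-25096342, minus strand: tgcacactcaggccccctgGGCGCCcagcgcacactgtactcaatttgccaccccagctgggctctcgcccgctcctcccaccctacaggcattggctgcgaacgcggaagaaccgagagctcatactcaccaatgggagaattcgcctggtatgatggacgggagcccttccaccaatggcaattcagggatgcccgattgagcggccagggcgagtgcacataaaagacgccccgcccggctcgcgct
Id3, chr4:136143572-136143821, plus strand: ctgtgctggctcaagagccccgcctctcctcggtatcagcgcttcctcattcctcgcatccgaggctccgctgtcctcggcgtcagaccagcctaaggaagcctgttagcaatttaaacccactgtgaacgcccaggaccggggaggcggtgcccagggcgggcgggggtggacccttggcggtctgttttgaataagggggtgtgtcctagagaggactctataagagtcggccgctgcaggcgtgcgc
Smad6, chr9:64022045-64022074, minus strand: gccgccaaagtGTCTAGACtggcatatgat

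Id2 held GGCGCC at positions -231 to -226 from its start and Smad6 held GTCTAGAC at -4 to 4, whereas these letters were not in the Id3 window. The window of the receptor gene Bmpr1a also held GGCGCC, at -198 to -193, and that of Bmp4 held neither motif. Of 32851 promoter windows of 300 bases, 11.9% held GGCGCC and 0.213% held GTCTAGAC. A match is a description of the sequence only.

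Id1 read 5.80, 5.88 and 6.48 in control high cells, 5.25, 6.12 and 7.25 in control low cells and 8.23, 8.41 and 8.42 in control negative cells. After tamoxifen it read 6.17, 5.41, 5.87 and 6.12 in high, 7.00, 7.18, 7.73 and 7.54 in low, and 8.85, 8.79, 8.97 and 8.94 in negative cells. The negative arrays lay above all high and low arrays under both treatments. Id1 was 4.92-fold lower in high than in negative control cells (-2.30 ± 0.33, limma adjusted p = 0.000106) and 7.99-fold lower after tamoxifen (-3.00 ± 0.29, limma adjusted p = 1.65e-06). Low cells were also below negative cells, by -2.14 ± 0.33 in controls (limma adjusted p = 0.000586) and -1.52 ± 0.29 after tamoxifen (limma adjusted p = 0.00463). High and low cells differed after tamoxifen (-1.48 ± 0.29, limma adjusted p = 0.00608), with a value in controls of -0.16 ± 0.33. The 5 calls named here held with each array left out in turn.

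In low cells Id1 was higher after tamoxifen by 1.15 ± 0.31 (2.23-fold, limma adjusted p = 0.0235). Together with Bmp4 it made 2 of 9 members called in this comparison, in which 8.32% of all genes were called. Its control low arrays spread over 2 log2 units and overlapped the tamoxifen arrays. The call was lost without control low replicate 1, the lowest array (0.68, adjusted p = 0.208), control low replicate 2 (adjusted p = 0.0877), tamoxifen low replicate 3 (adjusted p = 0.065) or tamoxifen low replicate 4 (adjusted p = 0.0561), after cyclic loess (adjusted p = 0.0751) and with only the low groups fitted (adjusted p = 0.0867). In negative cells the arrays did not overlap, but the difference of 0.53 ± 0.31 did not pass the test (limma adjusted p = 0.535). High cells differed by -0.17 ± 0.31 (limma adjusted p = 0.843). The tamoxifen difference in high cells minus that in low cells was -1.32 ± 0.44, which did not pass either (limma adjusted p = 0.499).

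Id2 followed the same order with smaller steps. It read 6.76, 6.58 and 7.42 in control high and 8.03, 8.28 and 8.04 in control negative cells, a difference of -1.20 ± 0.25 (2.29-fold lower, limma adjusted p = 0.00281). After tamoxifen it read 7.39, 7.00, 6.66 and 6.95 in high and 8.75, 8.43, 8.38 and 7.98 in negative cells, a difference of -1.39 ± 0.22 (2.61-fold lower, limma adjusted p = 0.000326). Neither pair overlapped, and both calls held with each array left out. Low cells lay between, at 6.79 to 7.84 in controls and 7.40 to 7.67 after tamoxifen. Low minus negative was -0.82 ± 0.25 in controls (limma adjusted p = 0.0698) and -0.88 ± 0.22 after tamoxifen (limma adjusted p = 0.0361). With the number in the sample titles as a block, the control difference passed narrowly and the tamoxifen call was lost. The tamoxifen call was also lost with any of the 8 arrays left out except tamoxifen negative replicate 4 (highest adjusted p = 0.113).

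Id3 read 6.43, 5.86 and 7.28 in control high and 8.62, 8.10 and 8.32 in control negative cells, a difference of -1.82 ± 0.40 (3.53-fold lower, limma adjusted p = 0.00338). After tamoxifen it read 6.10, 5.23, 5.52 and 6.38 in high and 8.91, 8.23, 8.05 and 7.98 in negative cells, a difference of -2.49 ± 0.34 (5.60-fold lower, limma adjusted p = 8.52e-05). Both calls held with each array left out, and the high arrays all lay below the negative ones. Tamoxifen high cells were also below tamoxifen low cells (-1.34 ± 0.34, limma adjusted p = 0.0338). That call was lost without tamoxifen high replicate 2 or 3 (adjusted p = 0.0894 and 0.0962) or tamoxifen low replicate 1 or 3 (adjusted p = 0.0858 and 0.115), after cyclic loess (adjusted p = 0.0639) and with only these groups fitted (adjusted p = 0.0674). Neither Id2 nor Id3 passed the test for tamoxifen against control: Id2 differed by 0.08, 0.21 and 0.27 and Id3 by -0.72, -0.06 and -0.05 in high, low and negative cells, with SE of 0.24 and 0.37.

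**Figure D3:**
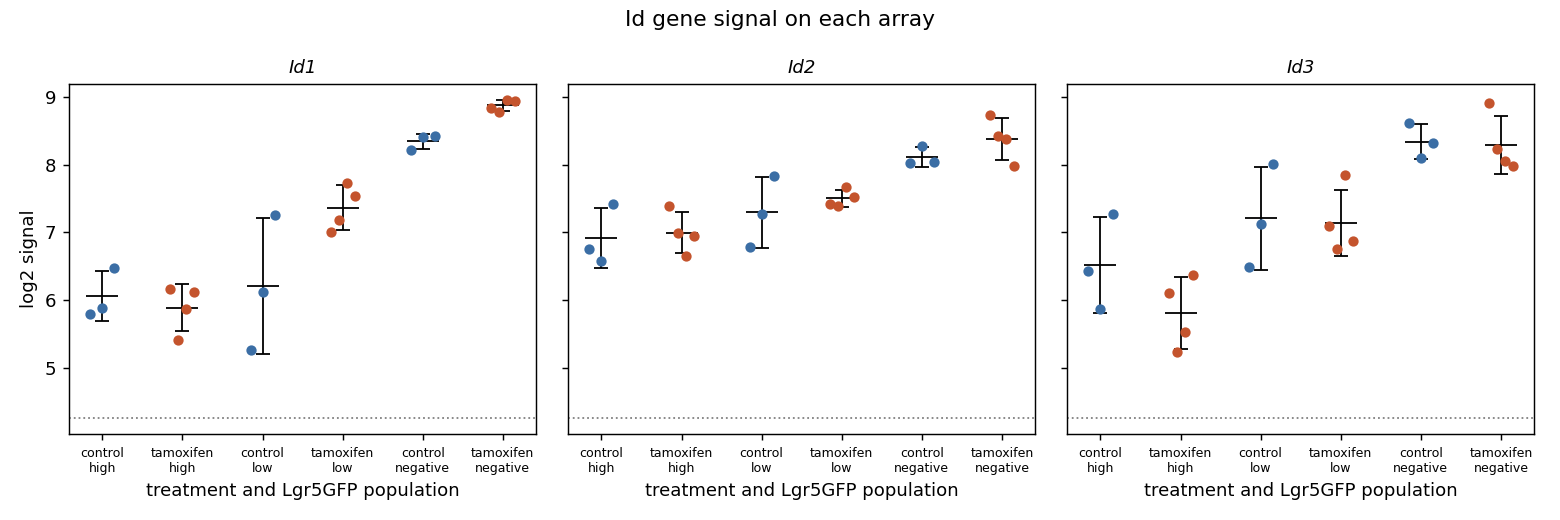
Log2 signal (vertical axis) of Id1, Id2 and Id3 on each array by treatment and Lgr5GFP population, with mean ± SD, blue for control, red for tamoxifen and a dotted line at the background of 4.25. For each gene the negative arrays lie above the high arrays of the same treatment, as for Id1 at 8.23 to 8.42 against 5.80 to 6.48 in controls.

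Over the 21 arrays Id1 correlated with Id2 at r = 0.93 and with Id3 at 0.88, and with group means removed at 0.71 and 0.73. Markers of surface pit cells, the mucous cells that line the stomach surface, moved with the Id genes. The mean over 9 of them, 8 above background in each group, ranged from 7.45 to 8.39 in control high, 8.05 to 8.67 in control low and 10.69 to 10.79 in control negative arrays, and from 7.03 to 8.49, 8.80 to 9.33 and 10.21 to 10.69 after tamoxifen. The mucin Muc5ac averaged 5.84 in control high and 11.13 in control negative cells. The pit marker mean correlated with Id1 at r = 0.93, Id2 at 0.86 and Id3 at 0.84 over the arrays, and at 0.37, 0.19 and 0.21 with group means removed. Endocrine cell markers moved in the same direction between high and negative cells, with 5 of 12 lower in high cells in controls and 8 of 12 after tamoxifen and none higher. Of all genes, 7.66% and 6.97% were called lower in these comparisons. Their mean ranged from 5.03 to 5.63 in control high, 6.36 to 8.11 in control low and 6.66 to 7.51 in control negative arrays, and from 4.38 to 6.99, 5.08 to 7.12 and 7.32 to 9.05 after tamoxifen. It correlated with Id1, Id2 and Id3 at 0.69, 0.79 and 0.70, and at 0.42, 0.57 and 0.21 with group means removed. The mucous neck marker mean correlated with the 3 genes at -0.41, -0.28 and -0.21 over the arrays but at 0.64, 0.62 and 0.46 with group means removed. The part of these lists in the Id differences was not tested.

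**Figure D4:**
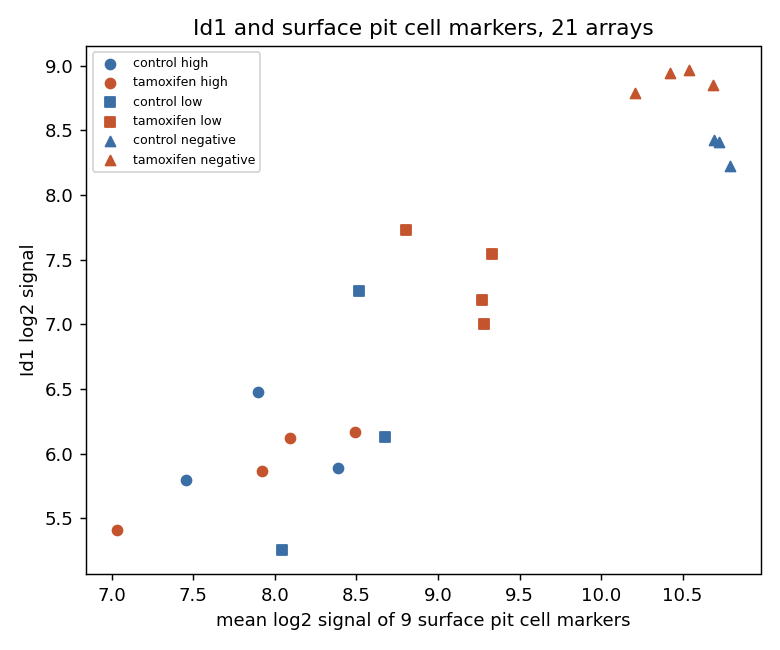
Id1 log2 signal (vertical axis) against the mean log2 signal of 9 surface pit cell markers (horizontal axis) on 21 arrays, with blue for control, red for tamoxifen, and circles, squares and triangles for high, low and negative populations. The negative arrays sit apart at pit means of 10.21 to 10.79, with Id1 at 8.23 to 8.97.

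The inhibitory SMADs varied less. Smad6 lay near background in high cells, at 4.49, 3.75 and 4.53 in controls, and read 5.41, 5.05 and 5.23 in control negative cells. The difference of -0.97 ± 0.31 passed narrowly (limma adjusted p = 0.047). It held without control high replicate 3 but not without control high replicate 1 or 2 (adjusted p = 0.0669 and 0.24) or any of control negative replicates 1, 2 and 3 (adjusted p = 0.162, 0.0737 and 0.119). Smad7 read 6.07, 6.40, 5.06 and 5.97 in tamoxifen high and 6.95, 6.96, 6.81 and 6.53 in tamoxifen negative cells, with no overlap and a difference of -0.94 ± 0.24 (1.92-fold lower, limma adjusted p = 0.013). The Smad7 call held with each array left out. It was lost when only these groups were fitted (adjusted p = 0.0834) and with the number in the sample titles as a block. Against control, tamoxifen differences were -0.04, -0.14 and -0.20 for Smad6 (SE 0.29) and 0.05, -0.25 and 0.36 for Smad7 (SE 0.26) in high, low and negative cells, and none passed.

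Counted over the 9 members other than Sostdc1, most calls lay between populations. More comparisons were made there, and between high and negative cells a larger share of all genes was called than for tamoxifen. In controls, 6 of 9 were called between high and negative cells, 1 higher and 5 lower in high cells, where 12.3% of all genes were called (4.64% higher, 7.66% lower), and the median difference was -0.62 against 0.04 over all genes. Without single arrays this count ran from 4 to 6. After tamoxifen the count was 5 of 9, 1 higher and 4 lower, against 10.3% of all genes (3.33% higher, 6.97% lower), with a median of -0.81 against 0.05. Low against negative cells gave 1 of 9 in controls (5.27% of all genes) and 2 of 9 after tamoxifen (2.24%), and high against low cells after tamoxifen gave 3 of 9 (3.22%). The control low against negative count rose to 3 without control low replicate 3, when Id2 (-1.09, adjusted p = 0.0143) and Id3 (-1.54, adjusted p = 0.0275) also passed.

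Tamoxifen against control gave 1 of 9 in high, 2 of 9 in low and 0 of 9 in negative cells, beside 2.73%, 8.32% and 2.32% of all genes. The medians were -0.14, -0.25 and -0.20 against 0.00, 0.01 and -0.00 over all genes. In negative cells 1 member, Bmpr1a, had an unadjusted p under 0.05 in limma. Tests of whether the tamoxifen difference varied between populations called 0 of 9 members in limma for each pair of populations, where 0.248% (high minus negative), 0.839% (low minus negative) and 0.0271% (high minus low) of all genes were called. At an unadjusted p under 0.05 they counted 1 (Bmp2), 0 and 1 (Id1).

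**Figure D5:**
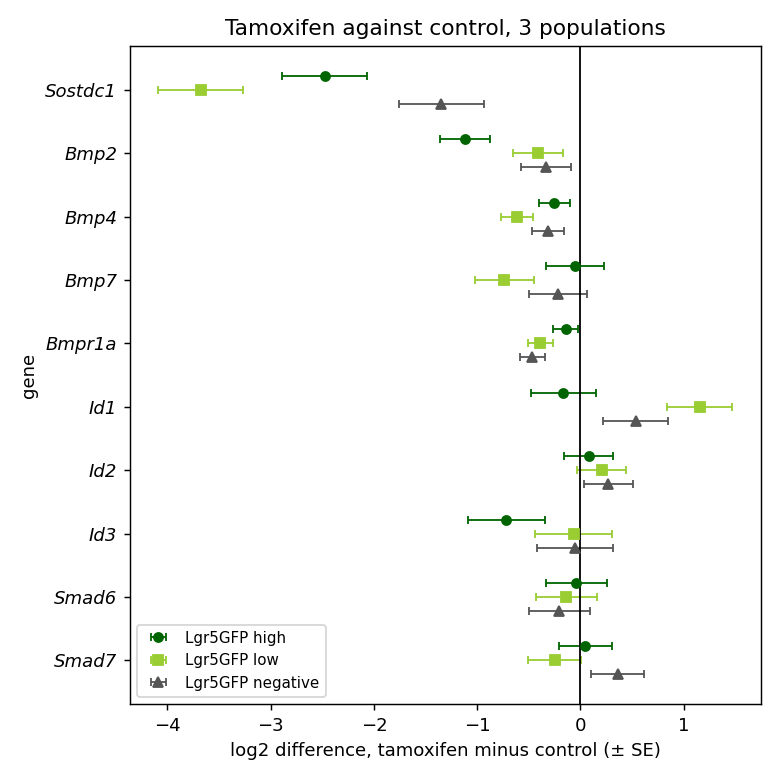
Log2 difference of tamoxifen minus control (horizontal axis, ± SE) for the 10 genes (vertical axis) in Lgr5GFP high, low and negative cells. Sostdc1 lies between -3.68 and -1.35, and the other genes between -1.12 and 1.15.

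Another 108 genes of the pathway and its neighbours were listed by role, and 100 of them were measured; the other 8 were not analysed here. Tamoxifen called 3 of the 100 in high cells (1 higher, 2 lower), 12 in low cells (5 higher, 7 lower) and 2 in negative cells (1 higher, 1 lower), near the 2.73%, 8.32% and 2.32% of all genes called in the same comparisons. Their median differences were -0.02, -0.10 and 0.00.

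Of 20 secreted antagonists and modulators measured, Smoc1 and Smoc2 fell after tamoxifen in low cells and none rose. In that comparison 8.32% of all genes were called. Smoc1, a matricellular protein that can antagonise BMP signalling, ranged from 7.24 to 7.74 in control low and 5.56 to 6.29 in tamoxifen low arrays (-1.58 ± 0.30, 3.00-fold lower, limma adjusted p = 0.00228). Its relative Smoc2, a gene enriched in Lgr5-expressing stem cells of the gut, ranged from 6.08 to 6.19 and from 4.10 to 5.46 (-1.38 ± 0.32, 2.61-fold lower, limma adjusted p = 0.00861). Both calls held with each array left out. Smoc2 was also 5.12-fold higher in high than in negative control cells (2.36 ± 0.34, limma adjusted p = 0.000103). Its control negative mean of 4.28 was next to background, which limits that fold.

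Of 16 other ligands measured, Amh and Bmp3 fell in low cells after tamoxifen, where 8.32% of all genes were called. Amh differed by -0.78 ± 0.20 (limma adjusted p = 0.0157), a call lost without control low replicate 1 or 2 (adjusted p = 0.0517 and 0.0784). Bmp3 differed by -0.88 ± 0.25 (limma adjusted p = 0.033), a call lost without control low replicate 1 or 2 (adjusted p = 0.0534 and 0.203) or tamoxifen low replicate 1, 2 or 4 (adjusted p = 0.0662, 0.101 and 0.0506). Between control populations, Gdf9 was 3.25-fold higher in high and 3.94-fold higher in low than in negative cells (1.70 ± 0.33 and 1.98 ± 0.33, limma adjusted p = 0.00142 and 0.00129).

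Of 13 other receptors and co-receptors measured, the type II receptor Bmpr2 was higher in high than in negative cells, by 1.00 ± 0.22 in controls (limma adjusted p = 0.00368) and 0.83 ± 0.19 after tamoxifen (limma adjusted p = 0.00657). Both calls held with each array left out. The second was lost when only these groups were fitted (adjusted p = 0.0716) and with the number in the sample titles as a block (limma adjusted p = 0.054). Bmpr1b averaged 4.45 in control low cells, just above background, and 3.20 after tamoxifen, at least 1.15-fold lower (-1.25 ± 0.28, limma adjusted p = 0.00792). Its arrays overlapped and the call was lost without control low replicate 1 or 2 (adjusted p = 0.0611 and 0.0618).

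Of 13 SMAD transducers and regulators measured, Tob1 alone was called after tamoxifen, in low and high cells. These comparisons called 8.32% and 2.73% of all genes. Tob1, an antiproliferative protein that binds SMADs, ranged from 8.60 to 9.76 in control low and from 7.22 to 7.96 in tamoxifen low arrays (-1.62 ± 0.25, 3.08-fold lower, limma adjusted p = 0.000346), and held with each array left out. In high cells it fell by 1.16 ± 0.25 (limma adjusted p = 0.0164), lost without control high replicate 2 (-0.96, adjusted p = 0.101) and when only the high groups were fitted (adjusted p = 0.137).

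Of 12 other BMP target genes measured, Hamp alone was called for tamoxifen, higher in low and negative cells. These comparisons called 8.32% and 2.32% of all genes. In high cells Hamp was not called in limma (unadjusted p under 0.05). Its means there, 2.05 in controls and 2.91 after tamoxifen, lay under background. Hamp encodes hepcidin, a regulator of iron that BMP signalling induces in the liver, and it averaged 2.35 in control negative and 10.24 in tamoxifen negative cells, at least 63.9-fold higher over background (7.89 ± 0.39, limma adjusted p = 1.51e-10), and 2.20 and 7.16 in low cells, at least 7.54-fold higher (4.97 ± 0.39, limma adjusted p = 2.3e-07). Tmprss6, the protease that dampens BMP induction of Hamp in the liver, showed no call for tamoxifen and was higher in high than in negative cells in controls (1.26 ± 0.29, limma adjusted p = 0.00543) and after tamoxifen (1.50 ± 0.25, limma adjusted p = 0.000552). Tmprss6 means in negative cells, 4.30 in controls and 4.16 after tamoxifen, lay next to background, which limits the sizes.

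Of 17 genes of the transforming growth factor beta and activin branch measured, 3 rose and 1 fell in low cells. In that comparison 8.32% of all genes were called, beside 2.73% in high and 2.32% in negative cells. Tgif1 was also called higher and Tgfb3 lower in high cells, and Acvr1c lower in negative cells. That Acvr1c call was lost when only the negative groups were fitted (limma adjusted p = 0.0663), after cyclic loess (adjusted p = 0.0645) and with some single arrays left out (highest adjusted p = 0.234). The ligand Tgfb1 ranged from 4.91 to 5.15 in control low and 6.04 to 7.22 in tamoxifen low arrays (1.69 ± 0.30, 3.23-fold higher, limma adjusted p = 0.00119). Pmepa1, a target and inhibitor of this branch, rose by 0.93 ± 0.21 (limma adjusted p = 0.00793). Both held with each array left out. The repressor Tgif1 rose by 1.07 ± 0.24 (limma adjusted p = 0.00663), lost without control low replicate 1 (adjusted p = 0.0516). The receptor Acvr1c fell by 0.95 ± 0.26 (limma adjusted p = 0.0247), lost without any of control low replicates 1, 2 and 3 (adjusted p = 0.069, 0.0763 and 0.0752) or tamoxifen low replicate 4 (adjusted p = 0.0737). The Acvr1c call in low cells was also lost after cyclic loess (adjusted p = 0.0501). Acvr1c means after tamoxifen, 4.08 in low and 3.71 in negative cells, lay under background. Of 9 Wnt co-receptors and relatives measured, Dkk4 was called in low cells (0.44 ± 0.12, limma adjusted p = 0.0305) with both means under background, and Lrp4, Lrp5 and Lrp6, to which Sostdc1 or its relatives bind, were not called for tamoxifen, although Lrp5 and Lrp6 had an unadjusted p under 0.05 in low cells and Lrp5 in negative cells. The Dkk4 call was lost when only the low groups were fitted (adjusted p = 0.0922) and with any of the 7 arrays left out except tamoxifen low replicate 4 (highest adjusted p = 0.116).

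Cell type markers in low cells moved beside these differences. After tamoxifen, 8 of 10 tuft cell markers and 7 of 14 parietal cell markers fell there and none of either list rose, where 8.32% of all genes were called. Of the other lists, 2 of 6 mucous neck and 2 of 12 endocrine markers fell, 2 of 9 pit markers rose, 2 chief and 2 immune markers fell with 1 of each risen, 1 of 10 endothelial markers fell, and 0 of 12 fibroblast and smooth muscle markers were called in limma (1 at an unadjusted p under 0.05). Parietal cells secrete acid, and high-dose tamoxifen is known to injure them in mice. The mean over their list ranged from 8.27 to 8.81 in control low and 7.01 to 7.59 in tamoxifen low arrays. Their part in the differences of the low population was not tested.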

How the data were processed

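Total RNA was amplified, labelled with biotin and hybridised to mouse gene arrays, per the labels' protocols. The deposited table holds log2 signal for 41345 probe sets on 21 arrays; the submitters' processing notes name RMA, oligo, limma 3.26.8 and R 3.2.3, with no roles. The genome build is not given in the sources used here. From these values, probe sets with exactly 1 annotated gene were kept, the brightest by mean per gene, giving 22180 genes; no gene was left out for low signal.

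Group means were fitted over all 21 arrays with limma 3.58.1 in R 4.3.3 (lmFit and eBayes, 15 residual degrees of freedom), and p-values were adjusted by the Benjamini-Hochberg method over all genes within each of 12 comparisons. A gene was called at an adjusted p under 0.05; all tests are two-sided. The step was tested on simulated data. Named genes were all members, up to 4 called genes per pathway list and comparison, the 5 genes most like Sostdc1 by either measure, and Lgr5. The members and lists were chosen with earlier results of these data known, and the marker genes printed were each cell type's defining ones and, for chief cells, those called, named after their values were seen.

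Numbers in the sample titles recur across populations, but the labels do not say what they mark. Control arrays sharing a number deviated together, whereas tamoxifen arrays sharing one did not all do so. The main fit did not use the numbers as pairs, so its tests between control populations leave that shared deviation out. Alternatives tried were cyclic loess, the mean of probe sets, leaving out the dimmest 25 percent of genes, a trended robust prior, fitting only the groups compared, blocks for the replicate number and for the title number, and leaving out each array.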

Additional observations from a re-analysis of the deposited data

Results flagged for a closer look

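Of 30 sets of 4 tamoxifen arrays checked for a single array apart from the others, 2 had one, and chance gives about 1 in 20. Smad6 read 4.65 in tamoxifen high replicate 4, against 4.00 to 4.11 in the other arrays of that group. Smad7 read 6.28 in tamoxifen low replicate 4, against 6.38 to 6.39 in the other 3, a gap that is small next to its spread in the other groups.

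The tamoxifen difference of Hamp varied between the populations by the interaction tests of limma. It was smaller in high than in negative cells by a log2 difference of -7.04 ± 0.55 (adjusted p = 8.9e-07), smaller in low than in negative cells by -2.93 ± 0.55 (adjusted p = 0.0127) and smaller in high than in low cells by -4.11 ± 0.55 (adjusted p = 0.00435). The second was lost without control negative replicate 3 (-2.74, adjusted p = 0.0522). Control means of Hamp lay under background, so these sizes carry the spread of background values.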

How the results depend on the processing

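No member's called difference changed sign under the alternatives tried. The counts of the 9 members other than Sostdc1 moved as follows. With only the groups compared, tamoxifen against control in high cells gave 0 in place of 1, low against negative in controls 2 in place of 1, and after tamoxifen high against negative gave 3 in place of 5 and high against low 1 in place of 3. Tamoxifen against control in negative cells gave 1 in place of 0 after cyclic loess and with the mean of probe sets, Bmpr1a in both (with the latter at -0.46, adjusted p = 0.0491). Leaving out single arrays gave 0 to 1 for tamoxifen in high cells, 0 to 2 in low cells and 0 to 0 in negative cells; 4 to 6, 1 to 3 and 1 to 1 in controls for high against negative, low against negative and high against low; 4 to 6, 1 to 2 and 1 to 3 for the same after tamoxifen; and 0 to 0 for the 3 interaction tests. After tamoxifen high against low gave 2 after cyclic loess (without Id3, adjusted p = 0.0639) and with a trended robust prior (without Bmp2, adjusted p = 0.0565). With the number in the titles, whose meaning the labels do not give, as a replicate block between populations, low against negative in controls gave 3, with Id2 (adjusted p = 0.0494) and Id3 (-1.14, adjusted p = 0.0477) added. After tamoxifen the same block gave 3 for high against negative, without Smad7 (adjusted p = 0.056) and Bmp7 (adjusted p = 0.0574), 1 for low against negative, without Id2 (adjusted p = 0.135), and 2 for high against low, without Bmp2 (adjusted p = 0.0739); beyond the members, Bmpr2 in high against negative had an adjusted p of 0.054. With that number as a random block, high against negative after tamoxifen gave 6, Smad6 added (adjusted p = 0.0499). With the replicate number as a block, high against negative after tamoxifen gave 6, and the counts of tamoxifen against control stayed at 1, 2 and 0. Deviations from group means were correlated between arrays of different populations. Control pairs with the same title number had r of 0.0918 to 0.317 (9 pairs), and those with different numbers -0.273 to 0.0326 (18 pairs). After tamoxifen the ranges overlapped, at -0.158 to 0.411 (10 pairs) and -0.277 to 0.342 (38 pairs). An array of their own number was the best match for 9 of 9 control arrays and 2 of 11 tamoxifen arrays. This is a hint from the data and not from the design. Signal near background limits Bmp4 and Smad6.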
